A study of Mus musculus with 26 samples.

Results

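The data compared here are 7 of the 26 RNA-seq libraries of a mouse gastruloid series, chosen by genotype and stage from the sample labels: the 4 replicates of one clone with an inverted cassette and the 3 replicates of the line with the same cassette in its forward orientation, all collected 120h after aggregation. Polyadenylated RNA was counted per gene, and only genes on the autosomes are reported, of which 17129 could be tested among 17769 genes in all. Every line of the series carries HoxB Del/Del(i9-13), so neither group is wild type, and no wild-type library enters the comparison. The forward line has Ins(CBS5-10) on that deletion and is called Ins. The inverted line has Ins(CBS5-10):Inv(CBS5-10), is a single clone named clone 1, and is called InvClone1. The labels do not spell out CBS, which in this field usually stands for a CTCF binding site, nor i9-13. They give no number for the clones behind Ins, and they do not say whether replicates came from separate cultures, so the p-values below reflect spread among libraries, part of which may be technical.

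Each library also carries 1 of 4 library labels, and the groups share only 1 of them. InvClone1 replicate 1 is labelled ISML_third, replicates 2 and 3 are labelled TruSeq_second, and replicate 4 is labelled ISML_second. Ins replicates 1 and 2 are labelled ISML_first, and replicate 3 is labelled ISML_second. Per the labels' protocols the pair of TruSeq libraries was made with another kit (TruSeq Stranded mRNA) than the rest (ISML). For 6 of the 12 possible pairs of an InvClone1 and an Ins library, the kit differs, and for 11 of them the label differs.

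Gastruloids form when small numbers of mouse embryonic stem cells are aggregated, lengthen in the dish and lay down tissues of the trunk and tail. Hox genes lie in clusters and are switched on in the order in which they lie, so that genes at one end mark anterior and early tissue and genes at the other end mark posterior and late tissue. Hoxb13 lies at the late end of the HoxB cluster, far from Hoxb9, and its product slows axis elongation. CTCF is a DNA-binding protein that stops the loop extrusion machine cohesin, and it does so best when its site points towards the oncoming cohesin. For that reason a row of CTCF sites may act differently when it is turned round, and comparing the inverted with the forward cassette asks whether orientation matters for gene expression. The study's own subject, per its title, is how CTCF insulates Hoxb13.

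No autosomal gene passed the test for a difference between InvClone1 and Ins. In the fit of all 26 libraries, modelled by group and by library label, 0 of 17129 autosomal genes (0%) passed (edgeR quasi-likelihood F-test, Benjamini-Hochberg adjustment over all genes, threshold 0.05), and the lowest adjusted p was 1. At an unadjusted p under 0.05 there were 153 autosomal genes, 62 higher and 91 lower in InvClone1, which is 0.893% of those tested. Evenly spread p-values would put a larger share there, a fraction of 0.05, so this count is no sign of a difference. A share so far under that fraction also means that the p-values ran high, which limits what the 0 calls can show. DESeq2 and limma-voom on the same design also called 0, with 44 and 167 genes at an unadjusted p under 0.05. The median log2 fold change of the autosomal genes was -0.03. Off the autosomes 3 genes passed, all on chromosome Y, with 0 to 3 counts each over the 4 InvClone1 libraries and 1328 to 3638 over the 3 Ins libraries. They are given only as a property of the clone.

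The absence of calls does not show that expression was equal. The median standard error of a log2 fold change was 0.33, and 0.24 among the 12635 autosomal genes with a mean of at least 1 CPM (read counts scaled to a common library total) over the 7 libraries. For 9194 of those 12635 genes, 72.8%, the 95% confidence interval of the fold change lay wholly within 2-fold in either direction. For 0 of them did the interval lie wholly beyond 2-fold. Libraries of a group also varied: the median SD of log2 CPM was 0.31 over the 4 InvClone1 libraries and 0.17 over the 3 Ins libraries. These SDs include differences of label, and in InvClone1 of kit. The median absolute difference between the group means was 0.14, which is not on the scale of an SD of single libraries. Between libraries of shared group and label, the median absolute log2 difference was 0.174 (InvClone1 replicates 2 and 3) and 0.176 (Ins replicates 1 and 2).

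The label structure decides which libraries carry the comparison. TruSeq_second occurs in no other group, so the label term takes up InvClone1 replicates 2 and 3 entirely, and their weight in the least-squares form of the contrast was 0. InvClone1 replicate 4 had a weight of 0.75 and replicate 1 a weight of 0.25. On the other side Ins replicate 3 had -0.67 and Ins replicates 1 and 2 had -0.17 each. The rest came from libraries outside the comparison that tie the labels to each other: InvClone1 at 144h with 0.25 for replicate 2 and -0.25 for replicate 1, and Del, the line with no cassette, at 120h with 0.17, 0.17 and -0.33 for its replicates 1 to 3. The fitted fold is therefore mostly the difference between the ISML_second libraries of both groups.

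**Figure D1:**
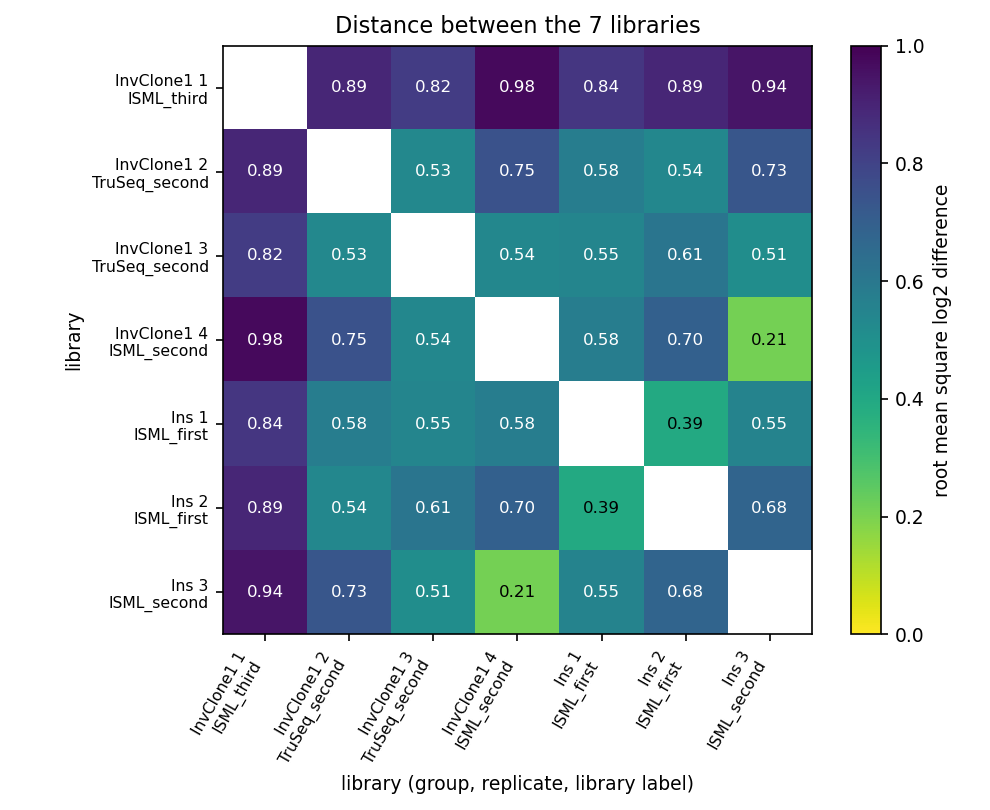
Root mean square log2 difference in CPM between each pair of the 7 libraries over the 12635 autosomal genes with a mean of at least 1 CPM; rows and columns are libraries, named by group, replicate and library label. The lowest value, 0.208, is between InvClone1 replicate 4 and Ins replicate 3, which differ in genotype and share the label ISML_second.

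The closest libraries were the InvClone1 and the Ins library that share a label. The distance between a pair of libraries was taken as the root mean square log2 difference over the 12635 genes. It was 0.208 between InvClone1 replicate 4 and Ins replicate 3, the pair of different genotype and shared label, and this was the lowest of the 21 distances plotted in the grid. Ins replicates 1 and 2, of shared genotype and label, lay 0.392 apart, and the TruSeq replicates of InvClone1 lay 0.531 apart, farther than InvClone1 replicate 3 lay from Ins replicate 3 (0.509). Libraries of one genotype with different labels lay 0.538 to 0.976 apart (7 pairs, median 0.746), while libraries of different genotype and label lay 0.509 to 0.942 apart (11 pairs, median 0.609). InvClone1 replicate 1 stood farthest from the rest, at 0.822 or more from each. Total counts were 20940093 to 37716547 in the 7 libraries, and the share of listed genes with any count was 54.8% in InvClone1 replicate 2 and 38.5% to 43.4% in the other 6.

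Both ISML_second libraries stood above the other 5 in 2347 of the 12635 genes (18.6%) and below them in 1970 (15.6%). All 4 InvClone1 libraries stood above all 3 Ins libraries in 177 genes (1.40%) and below them in 204 (1.61%). These splits set different numbers of libraries against each other, so their shares are not on one scale. The first split was counted after the distances were seen. The sources used here do not say what the labels stand for beyond the kit, so preparation, sequencing run and culture cannot be told apart.

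**Figure D2:**
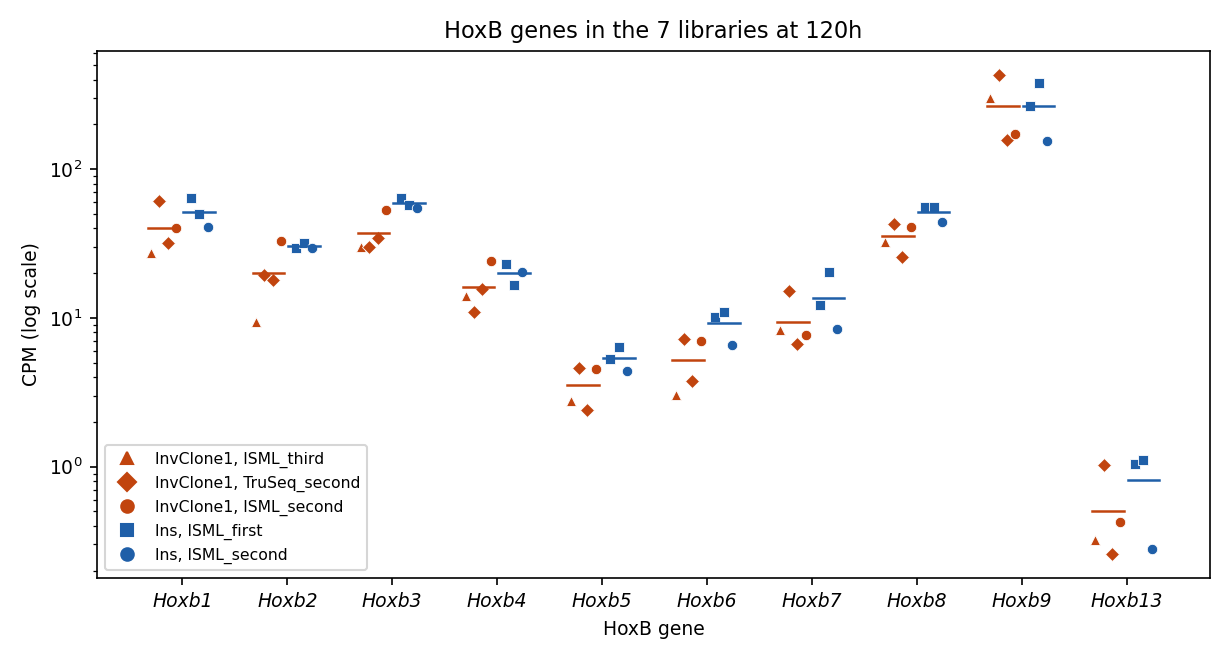
CPM of the 10 HoxB genes in each of the 7 libraries on a log scale; each point is a library, coloured by genotype and shaped by library label, and bars are group means. The ISML_second points of both groups lie close together for Hoxb1 to Hoxb9, and Hoxb13 is the lowest gene in every library.

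Hoxb13, at chromosome 11, 96194316 to 96197447 (mm10), was near the limit of detection in both orientations. It was measured at 0.323, 1.02, 0.259 and 0.425 CPM in InvClone1 replicates 1 to 4 and at 1.04, 1.11 and 0.281 CPM in Ins replicates 1 to 3. These values come from 6 to 29 reads, and 3 reads correspond to 0.0795 to 0.143 CPM in these libraries. The groups overlapped: each held at least 1 library above 1 CPM, and the lowest library of each stood at about the same level. The group means were 0.507 ± 0.349 CPM (SD, n = 4) in InvClone1 and 0.809 ± 0.459 (n = 3) in Ins. The fitted log2 fold change was 0.49 ± 0.79 (SE; 95% interval -1.23 to 2.21; edgeR, adjusted p = 1), which leaves room for a change of more than 2-fold in either direction. In the ISML_second pair it was 0.425 CPM in InvClone1 and 0.281 in Ins. For scale, the 4 libraries of the Del line, which lack the cassette, held 15.95 to 87.0 CPM, and no library of InvClone1 at any of its 4 stages exceeded 1.02 CPM.

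Anterior HoxB genes were expressed in both groups. Hoxb1, the first gene of the cluster to be switched on, had 27.5, 61.3, 32.0 and 40.2 CPM in InvClone1 and 63.9, 49.7 and 41.2 CPM in Ins. Hoxb2 had 9.37, 19.5, 17.9 and 33.0 CPM against 29.5, 32.1 and 29.6, so that 3 InvClone1 libraries were low and the ISML_second one was higher than any Ins library. Hoxb3 had 30.0, 30.0, 34.6 and 53.6 CPM against 63.9, 57.6 and 55.2. The Hoxb3 groups did not overlap, yet the InvClone1 library that shares its label with Ins lay just under the lowest Ins library. Hoxb4 had 13.9, 10.9, 15.7 and 24.0 CPM against 23.1, 16.6 and 20.5, again with the ISML_second library of InvClone1 as the highest of all 7. These genes help set hindbrain and neck identities.

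For Hoxb5 to Hoxb9 the highest InvClone1 library was replicate 2, labelled TruSeq_second. Hoxb5 and Hoxb6 were low, at 2.41 to 4.57 and 3.05 to 7.18 CPM in InvClone1 and at 4.41 to 6.39 and 6.57 to 11.02 CPM in Ins. Hoxb7 had 8.27, 15.2, 6.64 and 7.68 CPM in InvClone1 against 12.2, 20.4 and 8.40 in Ins. Hoxb8, a gene of trunk identity, had 32.4, 42.8, 25.7 and 40.9 CPM against 55.9, 55.8 and 44.1, and its groups did not overlap either. Hoxb9 was the most abundant gene of the cluster, with 303, 432, 157 and 171 CPM in InvClone1 and 267, 379 and 156 CPM in Ins. Its spread within each group was wider than the difference between the means. In the deposited length-scaled values (FPKM), Hoxb9 ranked the highest of the 10 HoxB genes and Hoxb13 the lowest in all 7 libraries.

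No HoxB gene passed. Fitted log2 fold changes were -0.23 ± 0.42 for Hoxb1, -0.12 ± 0.41 for Hoxb2, -0.40 ± 0.30 for Hoxb3, 0.46 ± 0.36 for Hoxb4 and -0.02 ± 0.42 for Hoxb5 (SE). They were -0.13 ± 0.44 for Hoxb6, -0.05 ± 0.56 for Hoxb7, -0.27 ± 0.32 for Hoxb8 and -0.03 ± 0.57 for Hoxb9, and the unadjusted p of the 10 genes ran from 0.206 to 0.968 (edgeR). The median over the 10 was -0.09, beside -0.03 over all autosomal genes. In the ISML_second pair Hoxb1 to Hoxb9 differed by -0.13 to 0.23 on the log2 scale. The 95% interval lay within 2-fold in either direction for 2 of the 10 genes, Hoxb5 and Hoxb8, and reached beyond it for the other 8.

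In the fit of 26 libraries, the direction of the difference depended on the library term for Hoxb4 and Hoxb13. The plain mean CPM was lower in InvClone1 for 10 of 10 HoxB genes, and 2 of them, Hoxb3 and Hoxb8, had all 4 InvClone1 libraries below all 3 Ins libraries, where 1.61% of all genes had that order. With no library term 10 of 10 fitted folds were negative, from -0.81 to -0.01 (edgeR, lowest adjusted p = 1), and with the term 8 of 10 were. With the term the sign of Hoxb4 (0.46 against -0.31 without it) and of Hoxb13 (0.49 against -0.70) turned. For Hoxb2, Hoxb3 and Hoxb4 the 3 low InvClone1 libraries were those labelled ISML_third and TruSeq_second, labels that no Ins library carries, so genotype and label cannot be told apart there. Hoxb7 and Hoxb9 had no such order, with InvClone1 replicate 4 below replicates 1 and 2.

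The other Hox clusters gave no call. Of 18 tested genes of paralog groups 1 to 9 in HoxA, HoxC and HoxD, 0 passed in either direction, with a median of -0.11. Of 7 tested genes of groups 10 to 13, which mark the posterior end of the axis, 0 passed, with a median of -0.52. Their summed CPM was 15.3, 46.7, 6.56 and 11.9 in InvClone1 and 20.9, 88.1 and 9.66 in Ins. Replicate 2 was the highest library in both groups. The median in the ISML_second pair was 0.00, the value of Hoxc11 and Hoxd13, which had 0 CPM in both libraries. It is therefore no sign of equal levels. The pair values of the 7 genes ran from -1.42 (Hoxa11, at 0 CPM in InvClone1 and 0.141 in Ins) to 0.40 (Hoxa10).

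Genes on either side of the cluster on chromosome 11 were also counted, since an insulator can act on its neighbours. Of 24 tested genes 0 passed, with a median log2 fold change of 0.10. Ube2z, which encodes a ubiquitin-conjugating enzyme and lies beyond the Hoxb13 end, was at 193, 183, 182 and 159 CPM in InvClone1 and at 162, 154 and 151 CPM in Ins (0.19 ± 0.12). The InvClone1 libraries were at the upper end but overlapped Ins. Cbx1, which encodes a heterochromatin protein and lies beyond the Hoxb1 end, was at 188, 147, 135 and 171 CPM against 174, 198 and 181 (-0.01 ± 0.14). Among the 14 tested genes for CTCF, cohesin and their partners 0 passed, and Ctcf itself was at 285, 226, 222 and 222 CPM in InvClone1 and at 248, 255 and 227 in Ins.

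**Figure D3:**
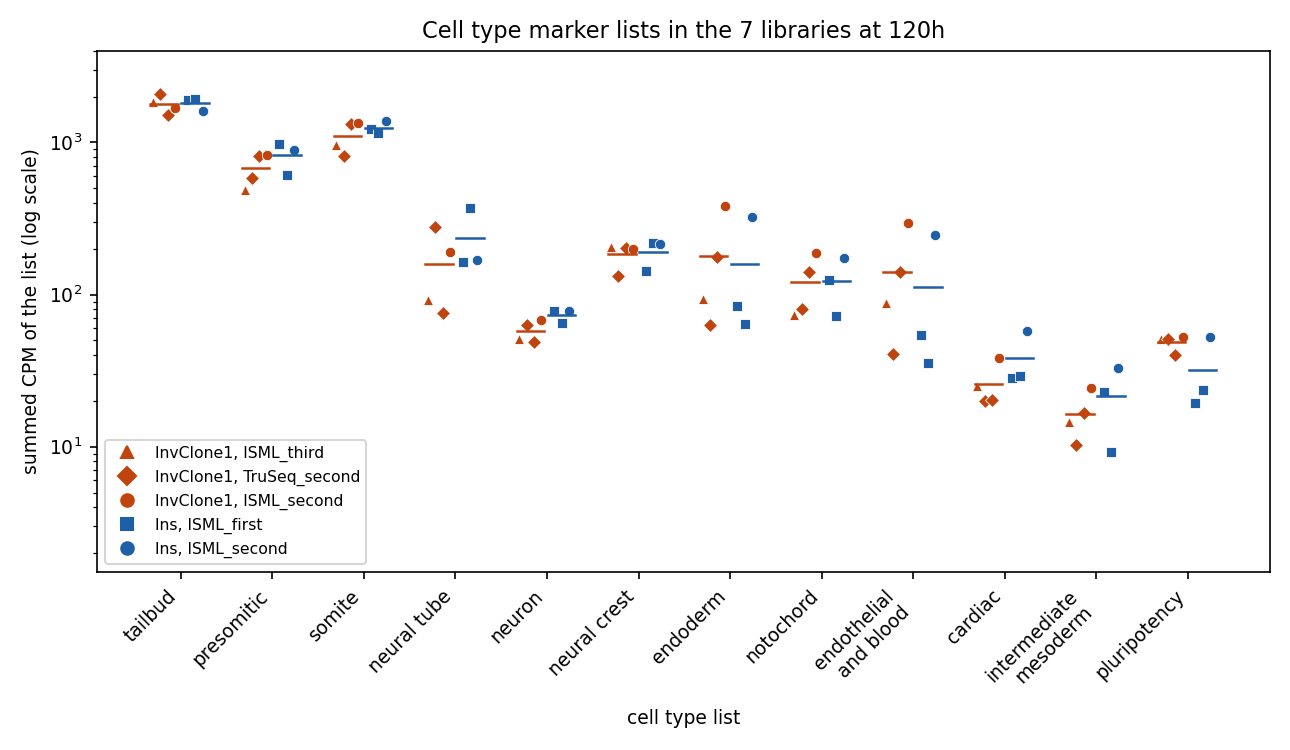
Summed CPM of 12 cell type marker lists in each of the 7 libraries on a log scale; points are libraries, coloured by genotype and shaped by library label, and bars are group means. For the endoderm list and the endothelial and blood list the ISML_second library of each group is its highest point.

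No gene list, of tissue markers or of other kinds, separated the orientations of the cassette. Besides tissue markers the lists hold sets such as ribosomal protein, imprinted and hypoxia genes. Over 29 lists, with 397 different autosomal genes tested, 0 genes passed and 1 had an unadjusted p under 0.05. Among all autosomal genes tested, 0.893% had such a p. In 0 of the 29 lists did the summed CPM of all InvClone1 libraries lie above or below that of all Ins libraries. Both ISML_second libraries stood above the other 5 in 9 lists and below them in 2, the FGF response and proliferation genes. Here too the splits divide the libraries differently, so the counts are not on one scale. The list medians of the fitted fold ran from -0.52 to 0.63. In the ISML_second pair 28 of 29 list medians were within 0.25 of 0. In bulk samples, fewer cells of a type and less RNA per cell cannot be told apart.

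Markers of the elongating end of the gastruloid overlapped between the groups. T (Brachyury), the defining gene of the tailbud and notochord, had 40.3, 49.1, 76.85 and 82.7 CPM in InvClone1 and 74.2, 38.7 and 76.8 CPM in Ins. Of 19 tailbud and neuromesodermal progenitor genes 0 passed (median 0.19), and the summed level was 1521 to 2064 CPM in InvClone1 and 1608 to 1918 CPM in Ins. Lin28a and Lin28b, RNA-binding proteins that favour the trunk programme, gave 0.18 ± 0.24 and -0.19 ± 0.21. Of 10 genes of trunk-to-tail timing 0 passed (median -0.01).

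Presomitic and somite genes gave no call either. Tbx6, which commits progenitors to presomitic mesoderm, had 10.3, 14.95, 31.1 and 39.0 CPM in InvClone1 and 40.0, 17.3 and 45.5 CPM in Ins, a spread of over 2-fold in each group. Meox1, a somite regulator, had 542, 439, 631 and 552 CPM against 605, 544 and 586 (-0.01 ± 0.20). Of 16 presomitic and clock genes and 15 somite and sclerotome genes 0 passed, with medians of 0.03 and -0.07. Signalling through these tissues was read from 12 Wnt response, 11 FGF response and 15 retinoic acid genes, of which 0 passed, with medians of -0.04, -0.01 and 0.19.

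Neural lists were uneven among replicates. Sox1, a neural progenitor factor, had 13.3, 39.9, 6.43 and 14.6 CPM in InvClone1 and 12.7, 34.5 and 13.8 CPM in Ins, so that replicate 2 was the highest of each group. The 17 neural progenitor and neural tube genes summed to 92.2, 279, 75.4 and 192 CPM in InvClone1 and to 165, 368 and 169 CPM in Ins, and 0 passed (median -0.17). Of 17 neuron genes and 8 neural crest genes 0 passed, with medians of -0.24 and -0.08. Sox10, the defining neural crest gene, was at 0.281 CPM or less in all 7 libraries.

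Endoderm and endothelial markers differed widely among libraries of one group. Endoderm genes summed to 93.2, 63.3, 177 and 380 CPM in InvClone1 and to 84.6, 63.7 and 325 CPM in Ins. Endothelial and blood genes summed to 88.4, 40.7, 140 and 295 CPM in InvClone1 and to 53.8, 35.6 and 247 CPM in Ins. In both lists the ISML_second library of each group was its highest. Kdr, the VEGF receptor of endothelial cells, shows the size of it, with 28.3, 2.57, 31.7 and 85.3 CPM in InvClone1 and 5.90, 3.75 and 74.4 CPM in Ins. The endothelial list had the highest median fold of all lists, 0.63, with 13 of 13 tested genes above 0 and 0 past the threshold, and its median within the ISML_second pair was 0.22.

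The cardiac and pluripotency lists had low summed levels. Cardiac and lateral mesoderm genes summed to 19.98 to 38.1 CPM in InvClone1 and to 28.2 to 57.8 CPM in Ins, and Nkx2-5, the defining cardiac factor, was at 0.281 CPM or less throughout. The cardiac list had the one list median in the ISML_second pair that lay beyond 0.25, at -0.73. Its member Myl7, an atrial myosin light chain, was the only list gene with an unadjusted p under 0.05 (0.0369, edgeR, adjusted p = 1), and it was at 0.193 CPM or less in InvClone1 and at 0, 0 and 1.36 CPM in Ins. Its fold turned to 3.55 when Ins replicate 3 was left out, so the value rests on that library. Pluripotency and germ cell genes summed to 50.8, 50.9, 40.0 and 52.7 CPM in InvClone1 and to 19.4, 23.4 and 52.3 CPM in Ins, where the ISML_first libraries were low and the ISML_second one was level with InvClone1.

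**Figure D4:**
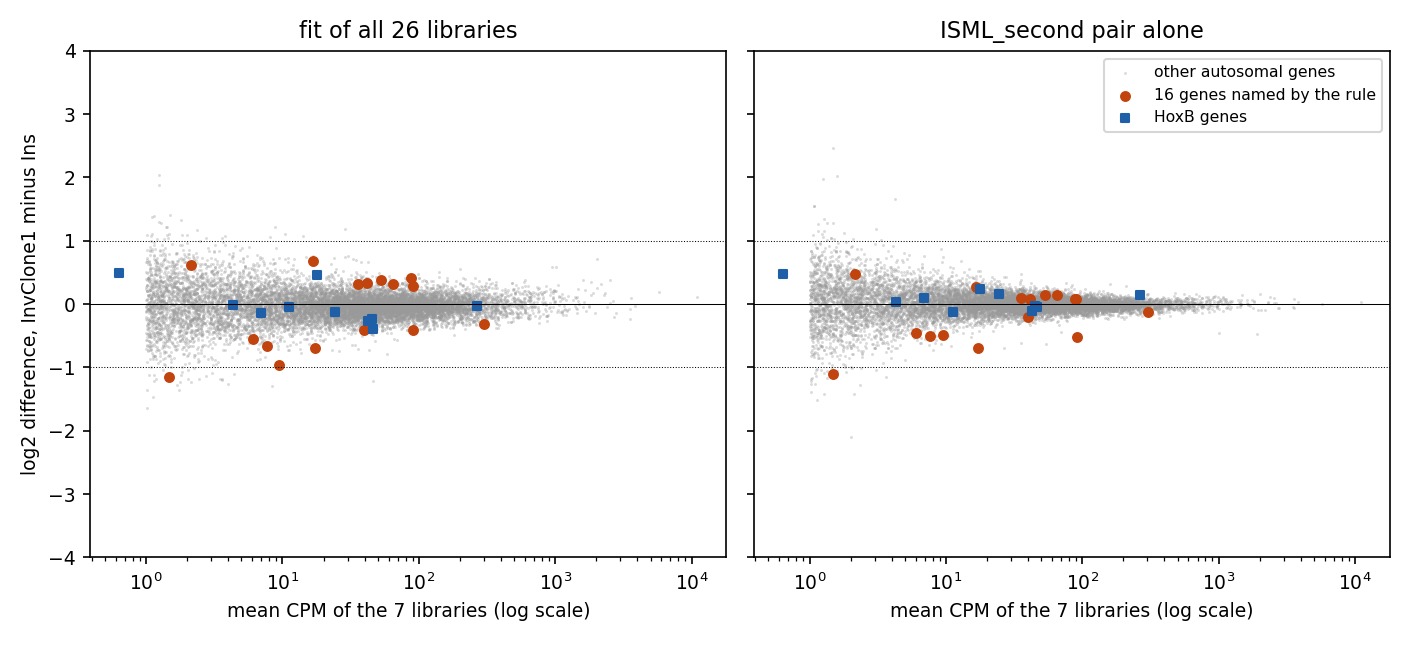
Log2 difference between InvClone1 and Ins against mean CPM (log scale) for autosomal genes with a mean of at least 1 CPM, from the fit of all 26 libraries (left) and from the ISML_second pair alone (right); circles are the 16 genes named by the rule, squares are HoxB genes, and dotted lines mark 2-fold. On the right 50 genes lie beyond 2-fold, mostly at low CPM.

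Since no gene passed, the genes with the smallest unadjusted p whose groups did not overlap are named here, 8 in each direction, as values that did not pass the threshold. They were chosen for lying apart, so their lack of overlap is no support for a difference. The lower genes were Arfgap2, Ccl27a, Pawr, Gt(ROSA)26Sor, St6gal2, Rsbn1l, Cpsf6 and Sft2d1, with log2 fold changes from -1.14 ± 0.43 (Ccl27a) to -0.31 ± 0.17 (Cpsf6). Their unadjusted p ran from 0.0176 to 0.0916 (edgeR, adjusted p = 1 for each). The higher genes were Nudc-ps1, Tatdn2, Cnpy4, Fkbp9, Tbcd, Wdr17, Cdc25c and Heg1, with log2 fold changes from 0.28 ± 0.17 (Tbcd) to 0.67 ± 0.36 (Nudc-ps1) and unadjusted p from 0.0863 to 0.155 (edgeR, adjusted p = 1 for each). In the plot of folds against mean CPM they sit within the cloud of the other genes or at its edge.

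Pawr, which encodes an apoptosis-promoting protein also called Par-4, was the lower gene whose value changed least among settings. It spans chromosome 10, 108332121 to 108414240 (mm10). It was at 14.4, 13.6, 9.34 and 15.6 CPM in InvClone1 and at 23.2, 19.3 and 25.3 CPM in Ins. Every InvClone1 library lay under every Ins library, which is the order it was picked for. The log2 fold change was -0.70 ± 0.27 (95% interval -1.28 to -0.12; edgeR, unadjusted p = 0.0210, adjusted p = 1). It ran from -0.87 to -0.67 over 21 alternative settings, which reuse the same libraries and so are no separate support. The pair of ISML_second libraries differed by -0.70 at 120h and, with other libraries of the same lines, by -0.74 at 144h. The InvClone1 library of the 144h pair, replicate 2, had only 0.0864% of its counts from mitochondrial genes.

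Arfgap2, which encodes an activator of the GTPase activity of Arf in Golgi vesicle traffic, had the smallest unadjusted p of the lower genes. It spans chromosome 2, 91264974 to 91276931 (mm10), and was at 79.4, 89.0, 86.7 and 71.0 CPM in InvClone1 against 104, 105 and 102 CPM in Ins. Its log2 fold change was -0.41 ± 0.15 (95% interval -0.73 to -0.08; edgeR, unadjusted p = 0.0176, adjusted p = 1). The ISML_second pair differed by -0.52 at 120h but by 0.26 at 144h. The 144h value rests on InvClone1 replicate 2 at 144h, the library with few mitochondrial counts, at 113 CPM against 94.4 in Ins. InvClone1 replicate 1 at 144h, of another label, was at 94.3 CPM.

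**Figure D5:**
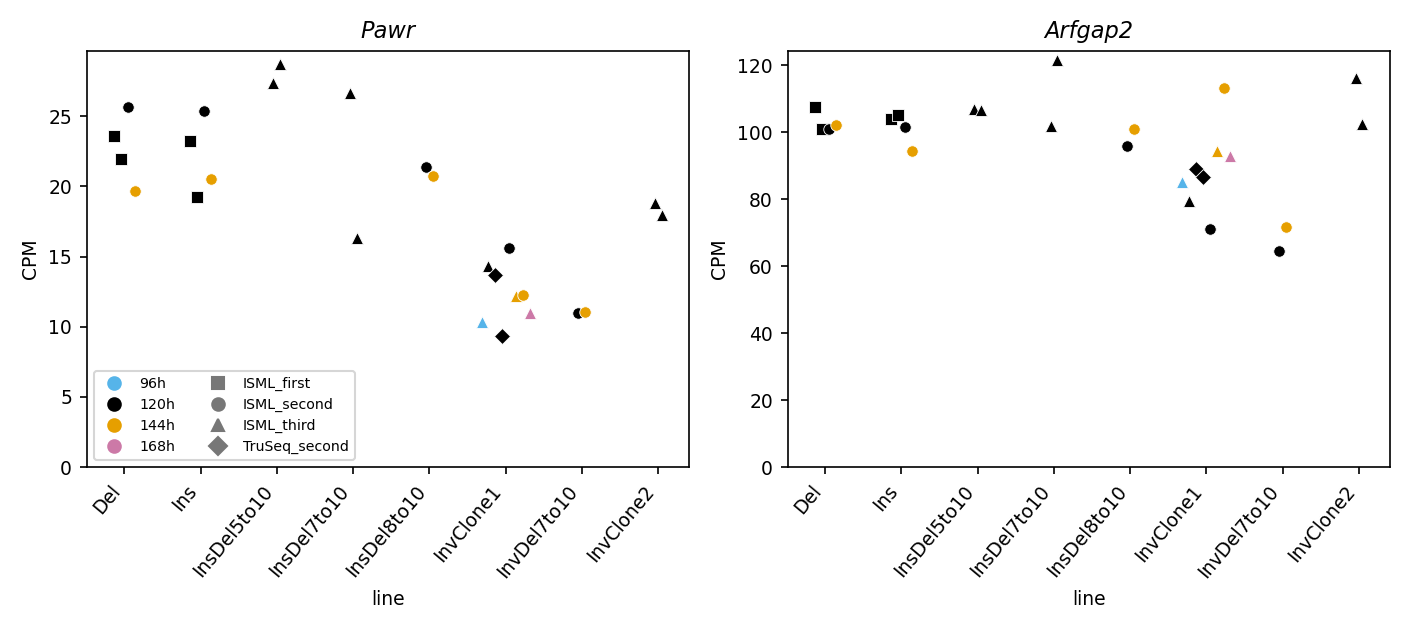
CPM of Pawr (left) and Arfgap2 (right) in all 26 libraries by line; each point is a library, coloured by hours after aggregation and shaped by library label. Pawr is at 9.34 to 15.6 CPM in the 8 InvClone1 libraries and at 16.3 CPM or more in Del, Ins and the InsDel lines.

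Values of both genes in the other lines were read after those of InvClone1 were seen, and were not tested. Pawr was at 9.34 to 15.6 CPM in all 8 libraries of InvClone1 from 96h to 168h, and at 10.97 and 11.05 CPM in the libraries of InvDel7to10, the line with Inv(CBS5-10) and Del(CBS7-10). It was at 17.95 and 18.8 CPM in InvClone2, a second clone with the same edit as InvClone1, and at 16.3 to 28.7 CPM in the 14 libraries of Del, Ins and the InsDel lines, which carry no inversion. Arfgap2 was at 71.0 to 113 CPM in InvClone1, at 64.7 and 71.9 in InvDel7to10, at 102 and 116 in InvClone2 and at 94.4 to 122 in those 14 libraries. For both genes InvClone2 lay within the range of the lines without the inversion, as the plot of these genes by line shows. The labels do not name the clone from which InvDel7to10 was made.

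The other lower genes were smaller in level or less steady. Cpsf6, a subunit of the mRNA cleavage factor, was at 271 to 299 CPM in InvClone1 and at 314 to 335 in Ins, but its ISML_second pair differed only by -0.13. Gt(ROSA)26Sor, the transcript of the Rosa26 locus, was at 4.64 to 8.54 CPM against 11.4 to 13.9, with -0.96 ± 0.44 in the fit, -0.49 in the ISML_second pair at 120h and -2.08 at 144h. Ccl27a, a chemokine gene, was at 0.462 to 1.16 CPM against 1.99 to 2.58. St6gal2, a sialyltransferase gene, was at 5.84 to 7.90 CPM against 8.26 to 9.30, and Sft2d1 and Rsbn1l were at 2.95 to 5.83 against 7.96 to 8.26 and at 29.0 to 40.3 against 41.8 to 51.1.

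The higher genes included Nudc-ps1 (0.67 ± 0.36) and Wdr17 (0.62 ± 0.39), which had the widest folds of the 8. Tatdn2, which encodes a member of a nuclease family, was at 65.6 to 76.9 CPM in InvClone1 and at 56.6 to 59.5 in Ins (0.31 ± 0.18). Cdc25c, a phosphatase that triggers mitosis, was at 41.4 to 50.4 CPM against 36.0 to 39.0, while its ISML_second pair differed by 0.08. Fkbp9, a prolyl isomerase of the endoplasmic reticulum, was at 84.3 to 113 CPM against 69.2 to 81.3. Tbcd, which helps fold tubulin, was at 84.6 to 109 CPM against 80.1 to 82.8. Across these 8 genes the pair differed by 0.08 to 0.47. Nudc-ps1 is a pseudogene, so its reads may be shared with its parent gene and its value is uncertain.

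Within the ISML_second pair, where label and kit are the same, InvClone1 replicate 4 and Ins replicate 3 were close to each other. The log2 differences over the 12635 genes had a median of 0.00 and an SD of 0.21, and 96.2% were within 0.5 of 0. Only 50 genes (0.396%) were over 2-fold apart, 23 higher and 27 lower in InvClone1. This is 1 library a group, so it has no replicate check. Distances to the other ISML_second libraries at 120h give a scale for it: the 10 pairs of these 5 libraries, each of another line, lay 0.208 to 0.281 apart, with 50 to 142 genes over 2-fold. The InvClone1 and Ins pair was the closest of them.

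The 50 genes were mostly scarce ones that varied among replicates too. Their median level was 1.34 CPM, against 29.5 CPM over all 12635 genes, and the highest of the 7 libraries exceeded the lowest by a median factor of 4.37, against 1.73 over all genes. The forebrain gene Otx2 (5.95 against 1.45 CPM) and Dbx1 of the neural tube (1.66 against 0.469) were higher in InvClone1, and were picked with their values in view. Tnnt2, a cardiac troponin gene, was lower (0.965 against 4.41 CPM). Dbx1 ran from 0.0519 to 8.76 CPM over the 4 InvClone1 replicates and from 0.469 to 17.3 over the 3 of Ins, so the groups overlapped widely. Of the 50 genes 2 had no overlap between the groups. Over all 12635 genes, 1.40% had every InvClone1 library above every Ins library and 1.61% had the reverse order.

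At 144h the ISML_second libraries of these lines were further apart. The ISML_second libraries of InvClone1 (replicate 2) and Ins (replicate 1) at that stage differed with an SD of 0.64 on the log2 scale, and 1313 genes (10.4%) were over 2-fold apart. The root mean square distance was 0.646 in this pair. Between InvClone1 replicates 1 and 2 at 144h, of one line but different labels, it was larger, 1.03, with 3480 genes over 2-fold apart. The distance between the lines at 144h therefore cannot be read apart from that library. Mitochondrial genes gave 0.0864% of the counts of InvClone1 replicate 2 at 144h and 0.587% to 1.51% of those of the 7 libraries at 120h. What part this has in the differences was not tested. Of the 50 genes over 2-fold apart at 120h, 27 (54.0%) had the same sign at 144h, beside 58.0% over all 12635 genes. The pairs at 120h and at 144h use no library in common.

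Leaving out InvClone1 replicate 4, the only InvClone1 library at 120h that shares its label with Ins, changed the count of calls. Without it 276 autosomal genes of 17107 passed (1.61%), 57 higher and 219 lower (edgeR, adjusted p under 0.05), with a median absolute log2 fold change of 1.24. In that fit the contrast rests on InvClone1 replicate 1 with a weight of 1 and reaches the labels of Ins through the InvClone1 libraries at 144h, with weights of 1 for replicate 2 and -1 for replicate 1. In the ISML_second pair the same 276 genes differed by a median of 0.07 in absolute value, and 1 of them was over 2-fold apart. The 219 lower genes had a median of -0.04 in that pair and of -1.21 in the pair at 144h, which includes the library with few mitochondrial counts. Of the 276 genes, 4 had an unadjusted p under 0.05 with all libraries in the fit, beside 0.893% of all autosomal genes. Among the 16 genes named by the rule, Cdc25c, Nudc-ps1, Cpsf6 and Rsbn1l passed only in this setting (edgeR, adjusted p = 0.0320, 0.0410, 0.0206 and 0.0453).

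By position, the differences were small on every autosome, and 0 genes passed on any of them. Median log2 fold changes per autosome ran from -0.06 to -0.01, and those of 210 windows of 10 Mb with at least 20 genes each ran from -0.16 to 0.06. In the ISML_second pair the window medians ran from -0.07 to 0.08.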

How the data were processed

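Gene lists, named genes and the comparison were chosen with earlier results of these data known. The authors deposited whole-number read counts per gene, not normalized, for 55141 genes, and FPKM values for 55138 (per the file headers), which gave gene names and positions. Tools named in the submitters' processing notes are STAR 2.7.10a, Cufflinks 2.2.1 and cutadapt 1.18, with build mm10. The sources used here do not state the strand setting or annotation release, so overlapping and antisense genes are uncertain. Of the tables' columns, 8 matched no sample and were not used.

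The test was the quasi-likelihood F-test of edgeR 4.0.16 (R 4.3.3, TMM, minimum count 10, 8 residual degrees of freedom), in 1 fit of 26 libraries with group and library label as terms. CPM used TMM-adjusted library sizes; log2 CPM added a prior count of 2. The rule named the 10 HoxB genes, genes that passed, averaged 1 CPM or more and had groups that did not overlap, filled to 8 a direction by smallest p, and list members at an unadjusted p under 0.05, leaving out predicted gene models. The first defining marker of the cell type lists and other genes singled out were shown as examples. Deviations of same-numbered libraries from their group means (replicates 1 to 3) correlated by 0.130, 0.355 and 0.390. Differently numbered libraries correlated by -0.315 to 0.0225. Deviations from a group mean depend on each other, so these values do not by themselves show pairing. The numbers were treated as pairing the libraries in 1 alternative. Other alternatives were DESeq2 1.42.0, limma-voom (limma 3.58.1), DESeq2 size factors, other filters, other sets of libraries, and each of the 7 libraries left out. The floor of 3 counts allows for counting error alone: without molecular identifiers, several reads may stem from 1 molecule.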

Additional observations from a re-analysis of the deposited data

Results flagged for a closer look

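In a group of 4, a library was picked out when its gap to the nearest other library took up nearly all of the range of the group (Dixon's 95% critical value for 4 samples). Of 60 quantities checked in the 4 InvClone1 libraries, 2 met this, and chance alone picks out about 1 group in 20. The summed neural crest markers of InvClone1 replicate 2, a TruSeq_second library, were 132 CPM, against 198 to 206 CPM in the other 3. Most of each sum was a single gene, Ets1, at 99.2 CPM in replicate 2 and 178 to 193 CPM in the other 3. The rest went both ways: Snai2 was lowest in replicate 2 (1.69 CPM) and Ednrb highest there (27.8 CPM). The summed pluripotency and germ cell markers of InvClone1 replicate 3, also TruSeq_second, were 40.0 CPM, against 50.8 to 52.7 CPM in the other 3.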

How the results depend on the processing

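The count of 0 autosomal calls held in 19 of 21 alternative settings. It was 1 with no filter on low counts (Gm27786, a predicted gene) and ran from 0 to 276 when each of the 7 libraries was left out in turn, with 276 only without InvClone1 replicate 4; the cause was not tested. Counts at an unadjusted p under 0.05 ran from 41 of 14809 genes (the 7 libraries alone with a library term) to 2612 of 17107 (without InvClone1 replicate 4), beside 153 of 17129. With the replicate number as a block (7 libraries, 2 residual degrees of freedom) 0 genes passed and 1170 of 14809 had an unadjusted p under 0.05. The shares without InvClone1 replicate 4 and with the block were above the fraction of 0.05 of evenly spread p-values, unlike that of the main fit. The block changed no call, and in it InvClone1 replicate 4 has no partner and no pair shares a label.

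No HoxB gene passed in any setting (210 values, lowest adjusted p 0.152), but 7 of 10 changed sign in some. Log2 folds of turned sign were -0.31 for Hoxb4 and -0.70 for Hoxb13 with no library term. They were -0.31 (Hoxb4), -0.68 (Hoxb13) and 0.00051 (Hoxb9) in the 7 libraries alone without it. With the term there they were 0.15 (Hoxb2), 0.029 (Hoxb5), 0.083 (Hoxb6) and 0.13 (Hoxb9). The replicate block gave -0.56 (Hoxb4), -0.61 (Hoxb13) and 0.14 (Hoxb9). Hoxb2 was at 0.0095 in the 120h libraries alone. It was at 0.010 without InvClone1 replicates 1 and 2 and 0.010 without InvClone1 replicate 2 at 144h, settings chosen after seeing the data. With each library left out in turn, Hoxb2 ran from -0.61 to 0.019, Hoxb5 from -0.20 to 0.077, Hoxb7 from -0.43 to 0.69, Hoxb9 from -0.43 to 0.088 and Myl7 from -2.58 to 3.55. Of the 17 named genes outside HoxB, 16 kept their sign in all settings, and 4 passed in 1 setting. Depth limits low genes: Hoxb13 rests on 6 to 29 reads a library.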
